A study of Conyza sumatrensis with 22 samples.

Results

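The 200 most abundant gene models in leaves of Conyza sumatrensis, known as Sumatran fleabane, were described, as a share of the leaf transcript pool and in their differences between populations and treatments. They were chosen by level alone. TPM, the share of a gene among all transcript molecules after division by transcript length (a share of 1% is 10000 TPM), was summed per gene model and averaged over all 22 libraries, and ranks 1 to 200 were kept. These are 200 of 45437 gene models, or 0.44%. All 200 passed the filter on low counts and are among the 22627 gene models tested.

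The libraries were made from leaf polyA RNA of 3 populations. By its label R resists the herbicide 2,4-D, while S and T are susceptible. Sampling took place before spraying (untreated) or 5 h after a dose of 1005 g ai/ha of 2,4-D (treated). Untreated and treated libraries numbered 4 and 3 for R, 3 and 4 for S, and 4 and 4 for T. Treated and untreated leaves differ in sampling time as well as in spraying, and no group was sprayed without 2,4-D, so these cannot be told apart. With 1 resistant population, resistance cannot be told apart from other differences of R. Whether replicate libraries stem from different plants is not stated in the labels. The p-values therefore measure the spread among these libraries, which may be technical in part.

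In green leaves a small number of nuclear genes usually supply a large part of the messenger RNA. In flowering plants these often include genes for photosynthetic proteins, such as the small subunit of Rubisco and the proteins that bind chlorophyll, and genes for ribosomal proteins. 2,4-D is a synthetic auxin: it acts through the auxin receptors, which lead to the breakdown of repressor proteins and so to rapid transcription of auxin-responsive genes. The files name genes by a letter and a running number and do not pair these identifiers with gene names, so what the members encode is not given here. The labelled tissue could not be checked against leaf marker genes for the same reason.

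Each library held 19.2 M to 24.4 M assigned reads. The reads were assigned to transcripts by estimate, which splits a read that fits near-identical copies, and 26.1% to 41.7% of a library's reads lay on transcripts whose count was not a whole number. T treated libraries 3 and 4 stood apart from the others in a way that touches the members directly. Their tables hold identical effective lengths (the number of positions where a fragment can start, by which counts are divided to give TPM), whereas the effective lengths of the other 20 libraries all differ. For the 30 members with a coding length under 300 bases, the effective length in these libraries was 1.37 to 2.39 times smaller than in the others (median 2.1), against a median of 1.03 for the 170 longer members. How these libraries were handled is not given in the sources used here. Results that rest on them are given with and without them.

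The members together held 34.5% of the transcript pool on average. Rank 1 alone held 1.96%, ranks 1 to 10 held 7.85% and ranks 1 to 50 held 18.3%. The mean level of rank 1 was 26.4 times that of rank 200. The boundary was not a step: g38673 and g40081, the last 2 members, had mean TPM of 747 and 745, and g34164 and g41288, the next 2 genes outside the list, had 745 and 742.

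The most abundant gene, g10146 (coding length 531 bases), averaged 19600 TPM and was the highest gene in 20 of the 22 libraries. In R it had 11200, 35600, 22100 and 27700 TPM untreated and 14500, 9960 and 7760 TPM treated. In S it had 13300, 16200 and 28100 TPM untreated and 22800, 23700, 18900 and 34700 TPM treated, and in T 20900, 18400, 15000 and 13800 TPM untreated and 11200, 20000, 20100 and 26000 TPM treated. Its untreated and treated libraries overlapped in every population, and the untreated R libraries alone spanned a wider range than the 6 group means, which ran from 10700 to 25000 TPM. The exceptions were R untreated library 1, where g11656 (rank 6) was the highest gene, and R treated library 3, where g3449 (rank 4) was.

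The genes at ranks 2 to 5 differed in how steady they were. g19343 (798 bases) averaged 12000 TPM, and its group means ran only from 8730 ± 1040 TPM in treated R (SD, n = 3) to 13800 ± 1690 TPM in treated S (SD, n = 4). g19288 (543 bases) averaged 7840 TPM, with group means from 2680 ± 1650 TPM in treated R (SD, n = 3) to 14600 ± 5730 TPM in treated S (SD, n = 4). g3449 (414 bases) averaged 7000 TPM and was highest in untreated S, at 9300 ± 1750 TPM (SD, n = 3). It was lowest in treated T, at 3960 ± 3000 TPM (SD, n = 4), with 7960, 4570, 1830 and 1490 TPM. Without T treated libraries 3 and 4, at 1830 and 1490 TPM, the lowest mean was that of treated S (7930, 5730, 7930 and 2390 TPM). g11474 (411 bases) averaged 6910 TPM, with group means between 4970 ± 1300 TPM in treated R (SD, n = 3) and 8660 ± 2420 TPM in treated S (SD, n = 4). The first 4 of these 5 genes had counts that were not whole in all 22 libraries, and g11474 in 17, so part of their level was divided between similar copies by estimate.

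Short coding sequences were over-represented among the members. Their median coding length was 440 bases, against 1310 bases for all tested genes, and they ranged from 207 to 2175 bases. Members under 300 bases made up 15% of the list and 2.12% of tested genes, and members over 1000 bases 14.5% and 65.4%. Outside T treated libraries 3 and 4, the median effective lengths of the members under 300 bases ran from 23.4 to 66.9 bases. A small count of such a member thus gives a high TPM in every library. Length enters TPM itself: of the 200 genes with the highest counts scaled to library size alone (CPM, not divided by length), 95 were members, and the median coding length of that list was 1150 bases. Counts that were not whole in every library marked 48 members (24%) and 6.12% of tested genes, and 14 members (7%) and 51.6% of tested genes had whole counts throughout. A single split read can make a count not whole, and the members were chosen for a high level. Genes of similar level were not compared, so how far this contrast goes with level was not tested. Only 2 members had more than 1 transcript model. There were 10 pairs of members with adjacent running numbers, 4 of them of equal length, such as g16033 and g16034 at ranks 65 and 7 with 801 bases each. The share of members' reads on such split transcripts was 67.0% to 82.6% in 20 libraries, and 49.7% and 52.9% in T treated libraries 3 and 4.

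Membership varied between libraries and between groups. There were 62 members among the 200 highest genes of every one of the 22 libraries, and 100 among the 200 highest of all 6 group means. The list of a single group mean held from 157 members in treated T to 184 in untreated T. In all, 460 genes reached the 200 highest of at least 1 library. Without T treated libraries 3 and 4 this number was 428, and 70 members were among the 200 highest of every library. The number of members among a library's own 200 highest ran from 133 in R treated library 1 to 181 in T untreated library 4. Even so, 196 members stayed at 100 TPM or more in all 22 libraries. The median member's highest library was 3.65 times its lowest, or 3.22 times without T treated libraries 3 and 4. There were 57 members above 5 times and 8 below 2 times, or 43 and 18 without these libraries. g26422 (rank 189), chosen after its values were seen, was among the steadiest, at 589 to 900 TPM over all libraries.

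The members' share of the pool was lower after treatment in R and close to the untreated level in S. In R the share was 32.9%, 39.1%, 36.1% and 35.4% untreated and 25.7%, 30.0% and 31.4% treated. All 3 treated libraries lay below all 4 untreated ones. The mean went from 35.9% ± 2.53 (SD, n = 4) to 29.1% ± 3.01 (SD, n = 3), a difference of -6.82 percentage points. Leaving out single libraries moved this difference between -8.03 and -5.11 points. The sums give the make-up of this shift: 112 members were lower, with a sum of -8.99 points, and 88 were higher, with a sum of 2.17 points. The 5 members with the largest decreases made up -2.68 points. As leaf RNA was measured in bulk, fewer cells of a type and less RNA per cell cannot be told apart.

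In S the members held 33.4%, 36.9% and 38.9% untreated and 36.5%, 34.6%, 33.5% and 35.9% treated. These libraries overlapped, with means of 36.4% ± 2.77 (SD, n = 3) and 35.1% ± 1.33 (SD, n = 4) and a difference of -1.26 points. In T they held 35.5%, 34.4%, 34.7% and 34.3% untreated and 32.7%, 33.2%, 36.7% and 37.6% treated. Treated T libraries 1 and 2 lay below all untreated ones and libraries 3 and 4 above them. The difference was 0.305 points with all libraries, -0.372 points when every library was given the same effective lengths, and -1.81 points with treated libraries 1 and 2 only. In T the 170 members of 300 bases or more held 30.8% untreated and 27.8% treated, without overlap, a difference of -3.03 points. It was -1.97 points with treated libraries 1 and 2 only, also without overlap. The 30 shorter members held 3.96% untreated and 7.3% treated, with overlap. No test is given for these shares, since the members were chosen on these libraries.

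**Figure D1:**
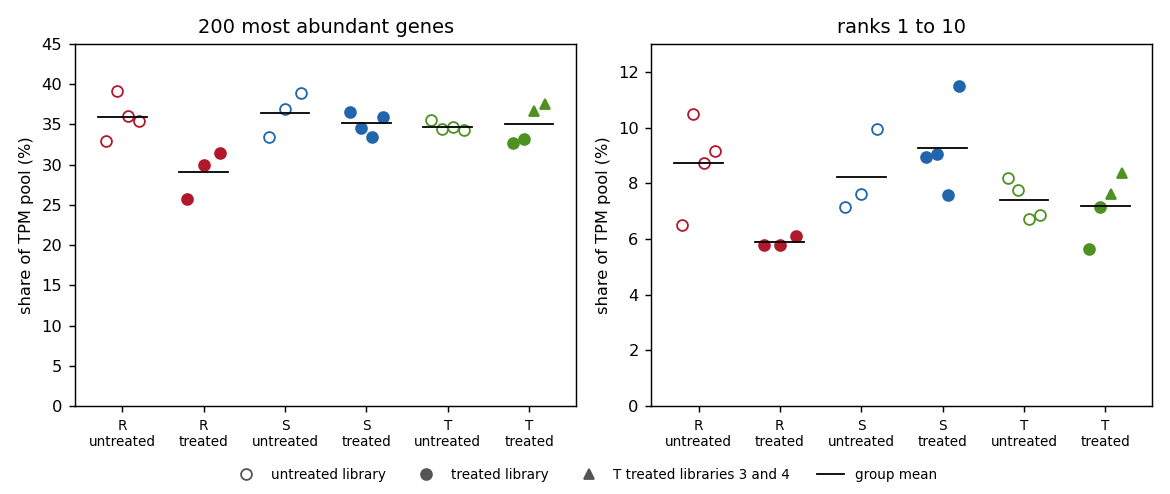
Share of the TPM pool (%) held by the 200 most abundant genes (left) and by ranks 1 to 10 (right) in each library, with open symbols for untreated and filled symbols for treated libraries, triangles for T treated libraries 3 and 4, and a line at each group mean. The 3 treated R libraries lie at 25.7% to 31.4%, below the untreated R libraries at 32.9% to 39.1%, and ranks 1 to 10 hold 5.8% to 6.1% in treated R.

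The lower share in treated R was largest, in relative terms, at the top of the list. Ranks 1 to 10 held 8.72% ± 1.67 untreated (SD, n = 4) and 5.9% ± 0.169 treated (SD, n = 3) without overlap, and ranks 11 to 50 held 10.8% and 8.82%, also without overlap. Ranks 51 to 200 held 16.3% and 14.3%, and these libraries overlapped. By estimated counts, which are not divided by length, the members' share of R libraries was 18.9% untreated and 13.3% treated.

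At the level of single genes the response of R among the members was mostly a decrease. Of the 200 members, 30 fell and 2 rose (edgeR quasi-likelihood test, adjusted p under 0.05). In this comparison 7.03% of all tested genes fell and 9.37% rose (16.4% together), against 15.0% and 1.0% of the members. The median log2 fold change was -0.16 over the members and -0.03 over all tested genes. The fallen members numbered 1 in ranks 1 to 10, 9 in ranks 11 to 50 and 20 in ranks 51 to 200. Their coding lengths were 306 to 1662 bases, so none was among the short members, and their log2 fold changes ran from -1.86 to -0.85. Together they held 5.63% ± 1.5 of the pool of untreated R leaves (SD, n = 4) and 2.73% ± 0.242 after treatment (SD, n = 3). As the 30 were picked for falling between these same libraries, a lower sum follows from the choice and is no further result.

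The number of calls in R hung on single libraries. Rising and falling members numbered 4 and 60 without untreated library 1, 2 and 8 without untreated library 2, 1 and 15 without untreated library 3, and 1 and 7 without untreated library 4. They numbered 3 and 7 without treated library 2, and 2 and 4 without treated library 3. When only the R libraries entered the model, 0 rose and 3 fell. Here and below, the share of all tested genes called is given for the main fit only. Shifts in the number of called members under other fits or left-out libraries are therefore not shown to be particular to the members.

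g41810 and g9743 are the fallen members with the largest decreases in TPM among those whose groups did not overlap. g41810 (rank 10, 669 bases) had 2910, 7000, 5270 and 5280 TPM in untreated R and 2830, 2480 and 2370 TPM in treated R. Untreated library 1 lay just above the treated libraries and the other untreated ones far above. Its log2 fold change was -1.09 (SE 0.33, edgeR adjusted p = 0.0301), and this call was lost without untreated library 2 (-0.83, adjusted p = 0.111), 3 (adjusted p = 0.0513) or 4 (adjusted p = 0.0558) and without treated library 2 (-1.01, adjusted p = 0.105) or 3 (-1.01, adjusted p = 0.102). g9743 (rank 18, 501 bases) had 1960, 3730, 3870 and 4130 TPM untreated and 1600, 1320 and 1390 TPM treated. Its log2 fold change was -1.31 (SE 0.32, edgeR adjusted p = 0.00845), and no single library removed the call.

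The 2 members that rose in R were g10551 and g34109. g10551 (rank 45, 381 bases) had 2460, 1380, 1980 and 1740 TPM in untreated R and 5220, 2750 and 3220 TPM in treated R. Treated library 1 was the highest, and the log2 fold change of 0.99 (SE 0.30, edgeR adjusted p = 0.0258) was 0.56 without it (adjusted p = 0.254). The call was also lost without untreated library 2 (0.90, adjusted p = 0.0788), 3 (adjusted p = 0.0569) or 4 (adjusted p = 0.0623). g34109 (rank 148, 1941 bases) had 605, 614, 533 and 547 TPM untreated, a narrow range, and 1830, 1180 and 999 TPM treated. Its log2 fold change was 1.15 (SE 0.28, edgeR adjusted p = 0.00765), and 0.75 without treated library 1 (adjusted p = 0.0923).

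In S, 0 members rose or fell by edgeR's test, in a comparison where 2.58% of tested genes rose and 0.46% fell (3.04% together). At an unadjusted p under 0.05, 22 members differed, DESeq2 called 8 and limma on TPM called 0. The 30 members that fell in R had a median log2 fold change of 0.16 in S, 8 of them below 0, and their share of the pool was 5.12% in untreated and 5.55% in treated S. The other 170 members had a median of -0.27 in S. In T the median of the 30 was 0.05, 12 of them below 0, against 0.33 for the other 170, and their share of the pool was 4.82% in untreated and 3.91% in treated T. None of the 30 was called by edgeR in S or T. The difference between the responses of R and S was significant for 0 members by edgeR, where 1.97% of tested genes were higher and 1.64% lower (3.61% together). At an unadjusted p under 0.05 it was 58 members, and DESeq2 called 8 and limma 5, all lower in R. This count of 0 was 25 without R untreated library 1 and 17 without S untreated library 3, and 1 without R treated library 1, S treated library 3 or T treated library 1.

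**Figure D2:**
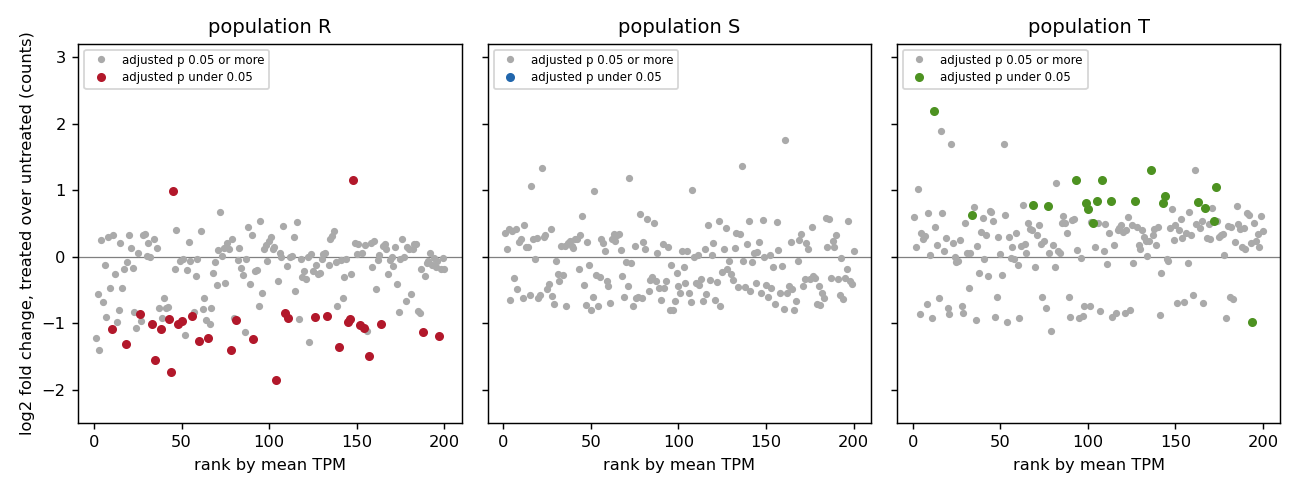
Log2 fold change of each member, treated over untreated, against its rank by mean TPM in populations R, S and T (edgeR, estimated counts); coloured points have an adjusted p under 0.05 and grey points do not. R has 30 coloured points below 0 and 2 above, S has none, and T has 19 above and 1 below, with all 22 libraries in the model.

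In T, 19 members rose and 1 fell, in a comparison where 5.72% of tested genes rose and 5.06% fell (10.8% together). These calls rested on T treated libraries 3 and 4: without both, 0 members were called by edgeR, with 19 at an unadjusted p under 0.05. Without library 3 the numbers of rising and falling members were 2 and 0, and without library 4 they were 3 and 0. Without treated library 1, in contrast, 25 rose and 31 fell. Leaving out untreated library 1, 2, 3 or 4 gave 10, 5, 6 or 9 rising members, with 1 falling member without library 1 and 0 otherwise. On the TPM scale, limma called 11 higher and 33 lower. There the median of all tested genes shifted by -0.24, and the median member was at -0.06 against -0.24 for all tested genes. T treated libraries 3 and 4 also entered the mean TPM by which the members were chosen. The members were thus chosen in part on the libraries compared here. A choice without T treated libraries 3 and 4 kept 195 of the members. With members chosen by mean TPM in untreated libraries only, 16 rose and 1 fell in T by edgeR.

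Of the 19 risen members, 13 were among the 30 under 300 bases. How many of all 479 tested genes under 300 bases rose in T was not counted. The 13 are therefore not shown to be particular to the members. These 30 genes held 10.4% and 10.6% of the TPM pool in T treated libraries 3 and 4 and 3.27% to 4.77% in the other 20 libraries. They also held more of the counts there, 0.397% and 0.352% against 0.183% to 0.289%. Counts are not divided by effective length. They are still estimates, and the share of split reads also differed in these libraries, so they are not an independent check. With the same effective lengths in every library the TPM shares were 5.95% and 5.88%, against 3.27% to 4.73% elsewhere. Their part in the T result beyond these values was not tested.

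**Figure D3:**
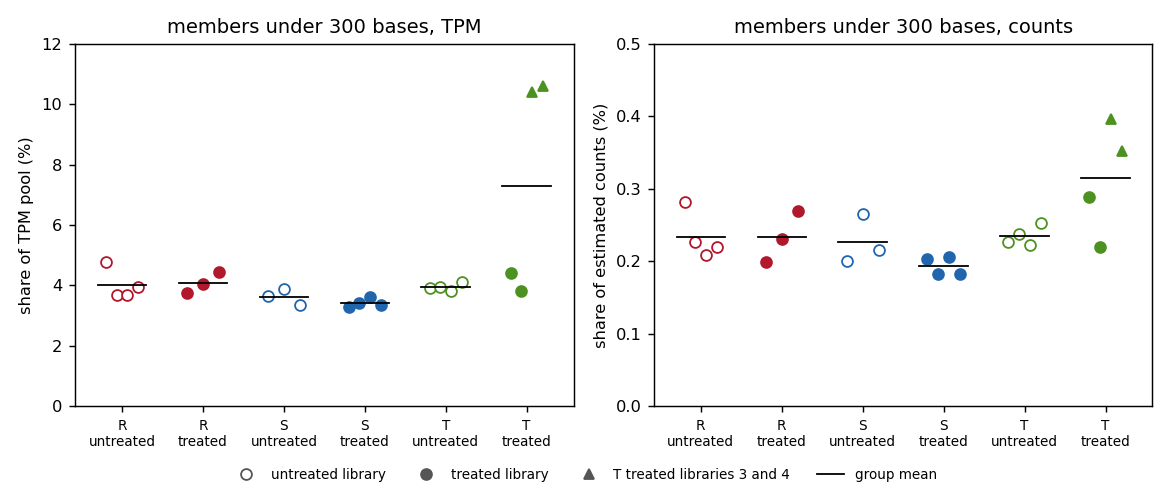
Share of the deposited TPM pool (left, %) and of the estimated counts (right, %) held by the 30 members with a coding length under 300 bases in each library, with open symbols for untreated and filled symbols for treated libraries, triangles for T treated libraries 3 and 4, and a line at each group mean. The triangles lie at 10.4% and 10.6% of TPM and at 0.397% and 0.352% of counts, above all other libraries in both panels.

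g3467 (rank 136, 231 bases) had 671, 440, 527 and 458 TPM in untreated T and 803, 1050, 2630 and 2060 TPM in treated T. On this scale treated libraries 3 and 4 were far above libraries 1 and 2, which were still above the untreated ones. In CPM with TMM scaling, untreated T had 29.5, 18.5, 22.6 and 19.6 and treated T 38.8, 49.0, 77.4 and 57.9. There, treated library 4 came closer to library 2. The log2 fold change in counts was 1.31 (SE 0.35, edgeR adjusted p = 0.024), and 0.98 without libraries 3 and 4 (adjusted p = 0.298). It also lost its call without untreated library 2 (1.22, adjusted p = 0.0808), 3 (adjusted p = 0.0591) or 4 (1.25, adjusted p = 0.0672) and without treated library 3 (1.11, adjusted p = 0.0959) or 4 (1.29, adjusted p = 0.0515). g19063 (rank 93, 279 bases) had 655, 798, 898 and 895 TPM untreated and 1460, 1040, 2370 and 2120 TPM treated, with a log2 fold change of 1.16 (SE 0.24, edgeR adjusted p = 0.00536) and of 0.84 without libraries 3 and 4 (adjusted p = 0.145). g40894 (rank 12, 228 bases), named after its values were seen, had 973 to 5200 TPM in 20 libraries and 12700 and 23000 TPM in T treated libraries 3 and 4. Its CPM ran from 40.2 to 283 in the same 20 libraries and was 355 and 615 in T treated libraries 3 and 4.

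The 1 member that fell in T was g30112 (rank 194, 453 bases), with 848, 1080, 1150 and 1110 TPM untreated and 759, 468, 268 and 221 TPM treated. The treated libraries lay below the untreated ones, library 1 only slightly. The log2 fold change was -0.99 (SE 0.30, edgeR adjusted p = 0.0377), and -0.58 without treated libraries 3 and 4 (adjusted p = 0.502). The call was also lost without untreated library 2 (adjusted p = 0.0902), 3 (adjusted p = 0.0817) or 4 (adjusted p = 0.0835), treated library 2 (adjusted p = 0.0725), 3 (-0.88, adjusted p = 0.132) or 4 (-0.81, adjusted p = 0.119), and S treated library 2 (adjusted p = 0.0521).

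The response of R was lower than that of T for 11 members and higher for 0, in a comparison where 4.53% of tested genes were lower and 3.94% higher (8.47% together). Without T treated libraries 3 and 4, which leaves 2 treated T libraries, it was 0 members, with 18 at an unadjusted p under 0.05. The members' median difference of log2 responses was -0.62 with all libraries and -0.43 without these. Without T treated library 1, 14 members were higher in R and 40 lower. Otherwise 0 were higher on leaving out any 1 library, and the count of 11 lower members was 42 without R untreated library 1, 23 without R treated library 1, 18 without S untreated library 3 and 17 without S treated library 4. It was 7 without T treated library 2, 6 without S untreated library 2 or S treated library 2 or 3, and 5 without S treated library 1. It was 1 without R untreated library 2 or 4, R treated library 2 or 3 or T untreated library 4, and 0 without T treated library 3 or 4 or T untreated library 2 or 3.

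g19288 (rank 3) had 2220, 10500, 6220 and 8810 TPM in untreated R and 4570, 1560 and 1900 TPM in treated R, and 7640, 3620, 2830 and 3640 TPM in untreated T and 3980, 8120, 7960 and 7370 TPM in treated T. Untreated and treated libraries overlapped in both populations. The difference of its log2 responses was -2.43 (SE 0.74, edgeR adjusted p = 0.0477), and -2.01 without T treated libraries 3 and 4 (adjusted p = 0.222). The call was lost, at adjusted p of 0.0507 to 0.117, on leaving out any 1 of R untreated 2, 3 or 4, R treated 2 or 3, S untreated 1 or 2, S treated 1, 2 or 3, T untreated 2, 3 or 4, and T treated 2, 3 or 4. g29369 (rank 35, 1662 bases) had 1150, 3610, 2480 and 3470 TPM in untreated R, 1410, 856 and 598 TPM in treated R, 2280, 1870, 1680 and 1650 TPM in untreated T and 1240, 2520, 2250 and 3340 TPM in treated T. Its difference was -2.30 (SE 0.62, edgeR adjusted p = 0.0302), and -1.72 without T treated libraries 3 and 4 (adjusted p = 0.19). This call was lost, at adjusted p of 0.0541 to 0.0755, on leaving out any 1 of R untreated 2 or 4, R treated 2 or 3, T untreated 2, 3 or 4, and T treated 3 or 4. Both genes had split counts in all 22 libraries. The responses of S and T differed for 0 members by edgeR, where 0.0221% of tested genes were higher and 0.0309% lower (0.053% together). At an unadjusted p under 0.05 it was 45 members, DESeq2 called 10 and limma 0.

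Before spraying, 38 members differed between R and S, 10 between R and T and 49 between S and T. Comparisons of R with S, R with T and S with T share their untreated libraries with each other. R was higher than S in 15 members and lower in 23, in a comparison where 16.6% of tested genes were higher and 14.1% lower (30.8% together), against 7.5% and 11.5% of the members. R was higher than T in 6 and lower in 4, against 7.77% and 6.97% of tested genes (14.7% together). S was higher than T in 33 and lower in 16, against 15% and 16.9% of tested genes (31.9% together), with a median log2 difference of 0.40 over the members. Higher and lower members in R against S numbered 16 and 41 without S untreated library 1, 13 and 7 without library 2, and 18 and 17 without library 3. In S against T they numbered 52 and 15, 16 and 12, and 16 and 13 without the same libraries. The split into higher and lower members thus depended on single S libraries, and also on the scale: on TPM, limma called 17 members higher and 8 lower in R against S, and 12 higher and 20 lower in S against T.

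**Figure D4:**
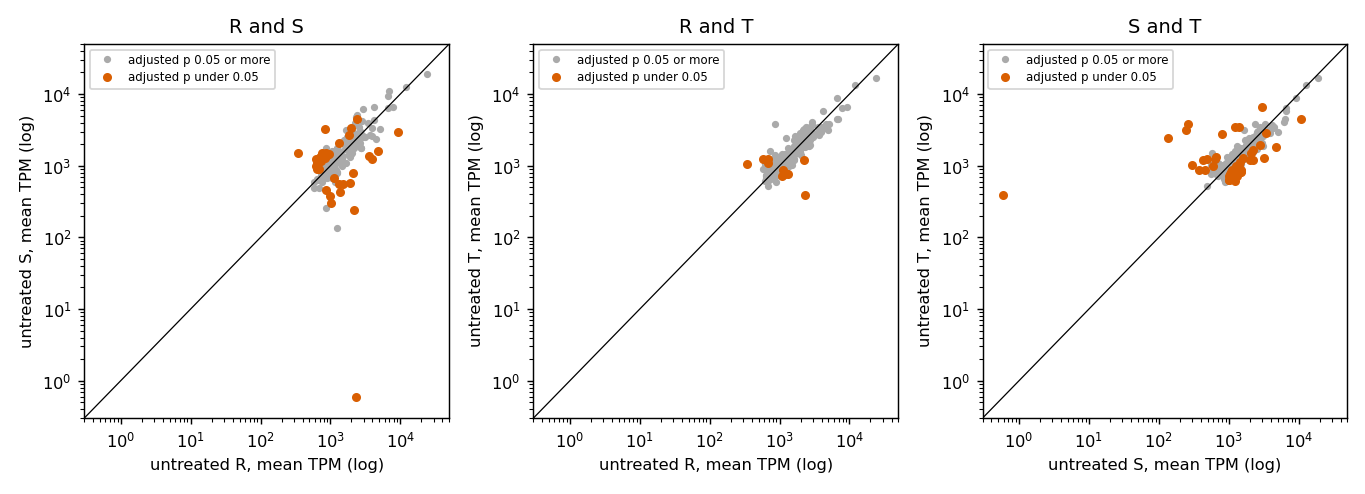
Mean TPM of each member in untreated leaves, for R and S, R and T, and S and T (both axes logarithmic; the line marks equal levels), with coloured points for an edgeR adjusted p under 0.05 and grey points otherwise. There are 38, 10 and 49 coloured points, and g39512 lies far from the line in both panels with S, at a mean of 0.598 TPM in untreated S.

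The members that were higher in R than in S included g11656 (rank 6, 237 bases), with 12800, 5680, 7820 and 10800 TPM in untreated R and 3770, 2890 and 2270 TPM in untreated S. The groups lay well apart. The log2 difference was 1.57 (SE 0.30, edgeR adjusted p = 0.000533). This gene was also lower in S than in T, at 8290, 6640, 4870 and 6470 TPM in untreated T, by a log2 difference of -0.96 (SE 0.29, edgeR adjusted p = 0.0165). That second call was lost without S untreated library 3 (-0.88, adjusted p = 0.0675) or T untreated library 1 (-0.81, adjusted p = 0.0531). g16032 (rank 24, 801 bases) had 2430, 6250, 5750 and 5000 TPM in untreated R and 1220, 1300 and 2370 TPM in untreated S, where the lowest R library came close to the highest S library, with a log2 difference of 1.44 (SE 0.38, edgeR adjusted p = 0.00724).

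In the other direction, g12036 (rank 74, 312 bases) had 1120, 951, 870 and 401 TPM in untreated R and 3180, 3870 and 2670 TPM in untreated S. R lay below S throughout, with a log2 difference of -2.10 (SE 0.37, edgeR adjusted p = 0.000241). g15010 (rank 20, 468 bases) had 3080, 2550, 2480 and 1440 TPM in R and 3910, 5550 and 4000 TPM in S. Its log2 difference of -1.05 (SE 0.39, edgeR adjusted p = 0.0494) lay at the threshold: the call was lost, at adjusted p of 0.0514 to 0.191, on leaving out any 1 of R untreated 2, 3 or 4, R treated 2 or 3, S untreated 2 or 3, S treated 2 or 3, T untreated 1, 2, 3 or 4, and T treated 2 or 3.

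Between R and T, g39512 (rank 161, 540 bases) had the largest difference in TPM among the members that were higher in R and whose groups did not overlap. It had 3730, 701, 2190 and 2650 TPM in untreated R and 553, 245, 523 and 214 TPM in untreated T. The lowest R library lay just above the highest T library, and the log2 difference was 2.71 (SE 0.66, edgeR adjusted p = 0.00806). In S the same gene was near absent, at 1.1, 0.596 and 0.0937 TPM untreated and 0.481, 0, 7.28 and 0.332 TPM treated. Its untreated T values all lay below 745 TPM, the mean of rank 200. Its treated T values were 767, 804, 709 and 684 TPM, and its treated R values 1620, 1810 and 1700 TPM. It is thus a member mainly through R, the population called higher here. g30214 (rank 130, 1173 bases) differed less but evenly, with 1210, 1000, 1210 and 1280 TPM in untreated R and 778, 792, 786 and 755 TPM in untreated T (log2 difference 0.74, SE 0.14, edgeR adjusted p = 0.00116).

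Lower in R than in T were g36087 and g40786. g36087 (rank 72, 207 bases) had 627, 169, 311 and 275 TPM in untreated R and 1140, 874, 850 and 1290 TPM in untreated T (log2 difference -1.47, SE 0.33, edgeR adjusted p = 0.00474). It is among the shortest members and had whole counts in all libraries. g40786 (rank 169, 1152 bases) had 644, 473, 546 and 660 TPM in untreated R and 1420, 1130, 1320 and 1160 TPM in untreated T (log2 difference -0.98, SE 0.18, edgeR adjusted p = 0.000941). The groups were apart in both genes, and no single library removed either call.

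S was higher than T in g19288 (rank 3), with 10100, 9360 and 13700 TPM in untreated S, all above the T values given before. The log2 difference was 1.59 (SE 0.53, edgeR adjusted p = 0.0268), and the call was lost without S untreated library 3 (1.31, adjusted p = 0.109) or T untreated library 2 (1.49, adjusted p = 0.0677), 3 (1.41, adjusted p = 0.076) or 4 (adjusted p = 0.0653). g8859 (rank 36, 417 bases) had 4710, 5980 and 3590 TPM in untreated S and 1320, 2010, 1960 and 1930 TPM in untreated T (log2 difference 1.67, SE 0.45, edgeR adjusted p = 0.00784). In the other direction, g15087 (rank 19, 1140 bases) had 1650, 1020 and 1050 TPM in untreated S and 4030, 3230, 3900 and 2920 TPM in untreated T (log2 difference -1.27, SE 0.23, edgeR adjusted p = 0.000268). Neither of these groups overlapped.

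The variation of the members within groups had a common direction in part. The same measure over all tested genes is not given here, so this is not shown to be particular to the members. After the group means were removed from log2 CPM, 1 axis held 52.6% of the members' remaining variance, and 50.9% without T treated libraries 3 and 4. On this axis 106 members had positive and 94 negative weights. T treated library 1 was at the negative end (-8.51), with S treated library 3 (-5.36) and R untreated library 1 (-4.88). S treated library 4 (8.45), T treated library 4 (6.33), R treated library 1 (5.83) and R untreated library 4 (5.42) were at the positive end. R libraries at the ends and near the middle of the axis both moved the calls for the response of R. Rising and falling members numbered 4 and 60 without R untreated library 1, and 1 and 7 without library 4. They numbered 2 and 8 without R untreated library 2 (-0.68), and 1 and 15 without library 3 (0.14). Without R treated library 1 they numbered 0 and 29, against 2 and 30 with all libraries. Whether the axis bears on the calls was not tested.

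Members of 2 coding lengths, singled out after the values were seen, lay mostly on the negative side of this axis. There were 13 members of exactly 411 bases, a length of 0.164% of tested genes, and 10 members of exactly 312 bases, a length of 0.15%. All 10 members of 312 bases and 10 of the 13 members of 411 bases had negative weights. The members of 312 bases together held from 0.507% of the pool in T treated library 4 to 3.57% in S untreated library 2. Their sum was 0.912% in R untreated library 4 and 1.96% to 2.40% in the other untreated R libraries, and 0.796% in S treated library 4 and 1.82% to 2.76% in the other treated S libraries. Of the 10 members, 9 had split counts in all 22 libraries. Which genes shared these reads was not determined, so the sum is not shown to be better defined than its parts.

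**Figure D5:**
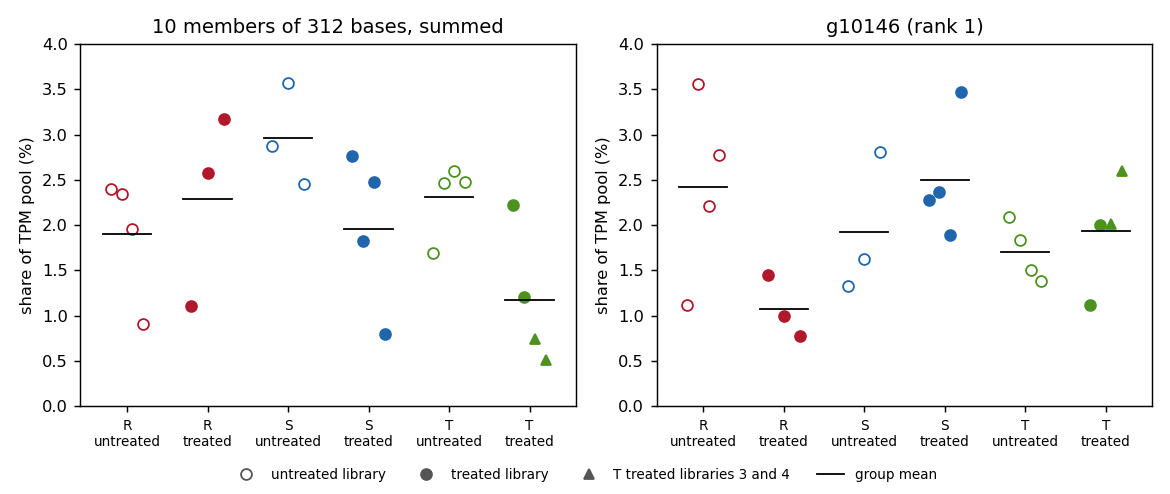
Share of the TPM pool (%) held by the 10 members of 312 bases together (left) and by g10146, the gene at rank 1 (right), in each library, with open symbols for untreated and filled symbols for treated libraries, triangles for T treated libraries 3 and 4, and a line at each group mean. The sum of the 10 members ranges from 0.507% to 3.57%, and libraries of a single group lie far apart in both panels.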

How the data were processed

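Per the file headers, the deposited tables give, for each transcript model, an estimated count of reads, TPM and the length and effective length in bases. Per the submitters' processing notes, reads were trimmed with Trimmomatic and assigned by the authors with Salmon. Tool versions, reference transcripts and strandedness: not given in the sources used here. Of 47916 transcript models, 47817 can be divided by 3 in length, hence the term coding length. TPM and estimated counts were summed per gene model, and counts were rounded to whole numbers. A count was called whole within 5e-04. Counts were filtered with filterByExpr, which kept 22627 gene models, scaled with TMM and tested with edgeR 4.0.16 in R 4.3.3 (robust quasi-likelihood F test, 1 mean per group over all 22 libraries). Calls were made at an adjusted p under 0.05 (Benjamini-Hochberg, all tested genes). The SE was obtained from the fold change and the F statistic. Alternatives used DESeq2 1.42.0, limma 3.58.1 on log2(TPM + 1) or log2(TPM + 0.1), other scalings, filters, member rules and left-out libraries. The script was tested on simulated data.

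The members, the named-gene rule and the lists were chosen with earlier results of these data known. Named genes are ranks 1 to 5, the last 2 members and the next 2 genes, and, for each response and each untreated difference, up to 2 called members per direction with the largest difference in mean TPM and no overlap between the groups. For differences of responses they are up to 2 called members per direction. Others are said to be chosen after their values were seen. Leaving out T treated libraries 3 and 4, and common effective lengths, were alternatives chosen after seeing the data. Where a library was left out, the members were chosen again from the rest, except in the counts given for T treated libraries 3 and 4 left out together. Same-numbered libraries did not deviate together: correlations of their deviations ran from -0.41 to 0.26, so replicate numbers were not taken as pairs.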

Additional observations from a re-analysis of the deposited data

Results flagged for a closer look

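Single libraries stood outside the other 3 of their group in 7 of 112 groups of 4 values examined for the named genes and the members' share, and chance flags about 1 in 20. In T untreated library 1, g19288 was at 7640 TPM (2830 to 3640 in the others), g41288 at 645 TPM (982 to 1040) and g8859 at 1320 TPM (1930 to 2010). In T treated library 1, g38673 was at 1010 TPM (644 to 690). In R untreated library 1, g11474 was at 4970 TPM (8570 to 9120), and in R untreated library 4, g8859 was at 1260 TPM (2560 to 2770). In S treated library 3, g39512 was at 7.28 TPM (0 to 0.481). T untreated library 1 accounts for 3 of the 7.

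The responses of R and T differed by the test of the difference itself in g19288 (log2 difference -2.43) and g29369 (-2.30). Without T treated libraries 3 and 4 the values were -2.01 and -1.72 and the calls were lost, as they were on leaving out any of 16 and of 9 single libraries, respectively.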

How the results depend on the processing

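For the 21 results of named genes, 32 alternatives each gave 672 values, of which 578 kept the call, 94 lost it and 0 changed sign. Leaving out single libraries moved the number of members called from 32 to between 6 and 64 for the response of R, from 0 to between 0 and 3 for S, and from 20 to between 2 and 56 for T. It gave 0 to 25, 0 to 54 and 0 to 2 for the differences of responses R and S, R and T, and S and T. It gave 20 to 57, 7 to 13 and 28 to 67 for untreated R and S, R and T, and S and T. The causes were not tested, and the shares of all tested genes called in these fits are not given here.

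DESeq2 called 8, 33, 8, 31 and 10 members for the responses of S and T and the differences R and S, R and T, and S and T. limma on TPM called 44 for T with either pseudocount, 5 and 3 for R and S, 6 and 4 for R and T, 25 for untreated R and S, and 32 with either pseudocount for untreated S and T. On TPM the median of all tested genes also shifted, by 0.29 and 0.25 for the responses of R and of S against T, and by -0.11 and -0.19 for untreated R and S against T. For the difference R and T, RLE factors and no count filter each gave 6 and upper-quartile factors 20. With a replicate block, 9 were called for R and 1 for the difference R and T, and the block moved no other count by over 1.5 times. With only the groups compared, 3 were called for R. Members taken by mean CPM gave 55, 5, 3, 21 and 16 for R, S, the differences R and S and R and T, and untreated R and T, and members by median TPM gave 1 for S. Without T treated libraries 3 and 4, T and the difference R and T had 0.

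The members' share in untreated and treated R, S and T was 18.9%, 13.3%, 18.7%, 18.9%, 17.4% and 18.5% of counts, and 27.0%, 20.1%, 26.2%, 27.8%, 25.4% and 24.4% for members by mean CPM, for which the S difference had the other sign, at 1.6 points. Each library's own 200 highest held 36.8% in treated S, 35.4% in untreated T and 38.1% in treated T. Without rank 1 the share was 33.5% in treated S and 33.6% in untreated T. Leaving out single libraries moved the share differences to between -2.68 and -0.0236 points in S and -0.589 and 1.06 points in T. Depth as a limit was not tested. While 196 members stayed at 100 TPM or more in every library, TPM is divided by length and does not give the number of reads. The short g36087 (207 bases), for example, was at 169 TPM and 6.33 CPM in R untreated library 2. Split reads also limit the level of single members.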

Other observations

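Running numbers g2434, g2435 and g2438 (ranks 16, 52 and 22), chosen after their values were seen, had the widest ranges among members found in every library. Their highest library was 341, 351 and 227 times their lowest. g2434 was at 7370, 226, 3730 and 3870 TPM in untreated T and 10600, 10700, 15700 and 7350 TPM in treated T. It was at 1720, 85.4, 263 and 1380 TPM in untreated R and 583, 46.1 and 148 TPM in untreated S. These values are a description, since the genes were chosen for their spread.

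The lists of the 200 highest genes by group mean shared 162 genes between untreated and treated R, 166 in S and 150 in T, or 160 in T with treated libraries 1 and 2 only. Between untreated populations, R and T shared 175, R and S 162 and S and T 161.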
